A study of Mus musculus with 2 samples.

Results

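Fc receptors bind the constant region of antibodies and carry the signal of an immune complex into the cell. The genes described here are the 4 mouse Fc gamma receptors (Fcgr1, Fcgr2b, Fcgr3 and Fcgr4), the adaptor Fcer1g and the Fc receptor-like genes Fcrls and Fcrl5. They were chosen by name, and all 7 were found among the 12584 genes of the matrix. Expression was measured by single-cell RNA sequencing in CD45+ cells, the leukocytes, sorted alive from subcutaneous YUMM3.3 melanomas of C57BL/6 mice 12 days after injection, the day in the series record, whereas the methods give a different day for this kind of experiment. YUMM3.3 is a mouse melanoma line with mutant Braf and deleted Cdkn2a. The NTT library came from tumour of the therapy-naive line and the RTT library from tumour of its derivative made resistant by continuous culture with the BRAF inhibitor dabrafenib. Both libraries were made in the same way, and cells of both groups were incubated with an antibody against CD16/32, the proteins of Fcgr3 and Fcgr2b, before sorting. Each group was 1 library, so line, mouse, sort and library cannot be told apart, no test was possible, and every interval below is a 95% interval of counting error only.

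Fcgr1, Fcgr3 and Fcgr4 encode activating receptors. Their proteins are held at the cell surface by the common gamma chain encoded by Fcer1g, whose activation motif recruits the kinase Syk. Fcgr2b encodes the inhibitory receptor, which recruits the phosphatase SHIP1 (Inpp5d). Fcgr1 binds monomeric IgG with high affinity, Fcgr4 binds IgG2 subclasses, and Fcgr3 mainly binds immune complexes. Macrophages and monocytes carry all of these, dendritic cells carry fewer, and mouse NK cells are known for Fcgr3. Fcrls is known as a gene of microglia and some tissue macrophages, and Fcrl5 as a gene of B lineage cells.

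In the mm10 (GRCm38) assembly 4 of the 7 genes lie within 274 kb of chromosome 1. In order they are Fcgr2b (chr1:170960558-170976071), Fcgr4 (chr1:171018926-171029761), Fcgr3 (chr1:171051169-171065915) and Fcer1g (chr1:171229572-171234349). The other genes lie on chromosome 3, Fcrls at chr3:87250736-87263765, Fcrl5 at chr3:87435777-87500678 and Fcgr1 at chr3:96282909-96293969. RefSeq lists small RNA genes within the span of Fcgr3, and another gene within the spans of Fcgr4 and of Fcrl5. The Fc gamma receptors and the Fc receptor-like genes have near relatives in the genome, and the way reads common to relatives were assigned could alter their counts.

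Fcgr4, Fcrls and Fcrl5, which differed most between the libraries, and Fcgr1, which holds the gamma-activated motif below, are shown with the 130 bases before a transcription start (RefSeq, GRCm38.p6), each written 5′ to 3′ on the strand of its gene. RefSeq's promoter table sets 1 start for each gene, and for Fcrls, Fcrl5 and also Fcgr3 this was not the outer end of the span given above, so the Fcrls and Fcgr3 windows lay within the span and the Fcrl5 window reached into it. Capitals mark matches to any of 4 motifs searched on both strands, namely the gamma-activated core TTCNNNGAA, the interferon-stimulated core GAAANNGAAA, the PU box GAGGAA and the ETS core GGAAGT. The last motif overlaps the PU box in places.
Fcgr1 (chr3:96293970-96294099, minus strand): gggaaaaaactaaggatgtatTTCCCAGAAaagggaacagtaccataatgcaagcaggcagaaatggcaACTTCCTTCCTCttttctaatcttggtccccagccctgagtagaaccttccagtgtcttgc
Fcgr4 (chr1:171018796-171018925, plus strand): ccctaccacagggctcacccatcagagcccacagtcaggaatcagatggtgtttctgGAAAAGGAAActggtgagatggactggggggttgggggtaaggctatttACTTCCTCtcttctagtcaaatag
Fcrls (chr3:87263525-87263654, minus strand): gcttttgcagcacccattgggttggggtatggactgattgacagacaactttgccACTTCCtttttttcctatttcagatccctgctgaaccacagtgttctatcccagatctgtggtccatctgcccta
Fcrl5 (chr3:87435652-87435781, plus strand): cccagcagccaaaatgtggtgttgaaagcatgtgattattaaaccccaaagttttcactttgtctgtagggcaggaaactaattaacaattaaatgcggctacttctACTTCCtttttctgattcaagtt

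The gamma-activated core was found in Fcgr1 alone of the 7 windows, from 109 bases before the start, and 3.60% of all 27025 promoter windows of that length held one. The interferon-stimulated core was found in Fcgr4 alone, from 73 bases before the start, against 1.35% of all windows. The ETS core stood in the windows of Fcgr1, Fcgr2b, Fcgr4, Fcrls and Fcrl5 (12.6% of all windows), and the PU box in those of Fcgr1, Fcgr3 and Fcgr4 (12.5% of all windows). The window of Fcer1g held no match. A match describes letters only, and binding was not measured.

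The NTT library held 2975 cells and the RTT library 4840, with a median of 5398 and 8336 UMIs (unique molecular identifiers, 1 for each captured molecule) per cell. The 16 population names are those of the authors, given to clusters of expression. Fcrls is among their markers of TAM_C1q and Fcgr4 among those of TAM_H2Ab1, so levels between populations are a description. Monocytes made up 54.3% of NTT and 4.11% of RTT cells, macrophages 19.6% and 82.8%, and dendritic cells 16.5% and 10.9%. Levels below are UMIs scaled to a total of 1000000 over the summed cells (CPM), and since each molecule gives 1 tag near its 3′ end, they were not divided by gene length. Some names went against their markers in the RTT library, and Monocyte_1 held macrophage markers in both libraries. Its NTT cells held 19213 CPM of the 7 macrophage markers and 5499 CPM of the 5 monocyte markers, and its RTT cells 17246 and 3358 CPM. The macrophage marker C1qa was at 1000 CPM or more in 585 of its 984 NTT and 44 of its 99 RTT cells. The 29 RTT cells named Neutro held 39034 CPM of the 7 macrophage markers and 15892 CPM of the 4 neutrophil markers, against 5819 and 73743 CPM in the 91 NTT cells of that name. The RTT Infl_Mono cells held 32683 CPM of the macrophage markers, against 9196 CPM in the NTT cells. The population NK_cells held 6227 CPM of the 5 T cell markers and 5041 CPM of the 5 NK cell markers in the NTT library. In the RTT library these sums were 4494 and 2748 CPM, so the cells called NK cells below include T cells by marker.

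Over all cells Fcrls was higher and Fcgr4 and Fcrl5 were lower in the RTT library by more than 2-fold, and the other 4 genes differed by less than 2-fold. Fcrls went from 47.0 CPM (922 UMIs) in the NTT to 2475 CPM (110657 UMIs) in the RTT library, a log2 ratio of 5.72 (5.63 to 5.81). Fcrl5 went the other way, from 51.5 CPM (1012 UMIs) to 1.59 CPM (71 UMIs), a log2 ratio of -5.02 (-5.39 to -4.67). Fcgr4 was at 1274 CPM in the NTT and 320 CPM in the RTT library (log2 ratio -1.99, -2.02 to -1.96). Thus 1 of 7 genes was at least 2-fold higher, where 8.74% of all 9537 genes with at least 200 UMIs were, and 2 of 7 were at least 2-fold lower, where 10.5% were. The remaining receptors moved in both directions. Fcgr1 was at 860 and 579 CPM (log2 ratio -0.57), Fcgr2b at 1041 and 1297 CPM (0.32) and Fcgr3 at 846 and 1156 CPM (0.45). Fcer1g, the most abundant of the 7, was at 8680 and 7440 CPM (-0.22).

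Because the libraries differed in make-up, the difference in CPM over all cells was split into a part from the UMI shares of the populations and a part from levels within populations. Shares made up 91.9% of the difference of Fcgr1 and 103% of that of Fcgr2b. For Fcgr4 they made up 20.7% and for Fcgr3 20.3%, so that most of these differences lay within populations of the same name. For Fcrls they made up 40.4%, but the larger part depended on the weights, with 18.5% from shares at NTT levels and 62.3% at RTT levels. For Fcer1g the share part was 1.08%, and for Fcrl5 it ran against the difference, at -40.7%. The share part of Fcgr3, Fcer1g and Fcrl5 changed sign when the levels of only 1 library were used as weights (-8.86% for Fcgr3, -35.6% for Fcer1g and 6.85% for Fcrl5).

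**Figure D1:**
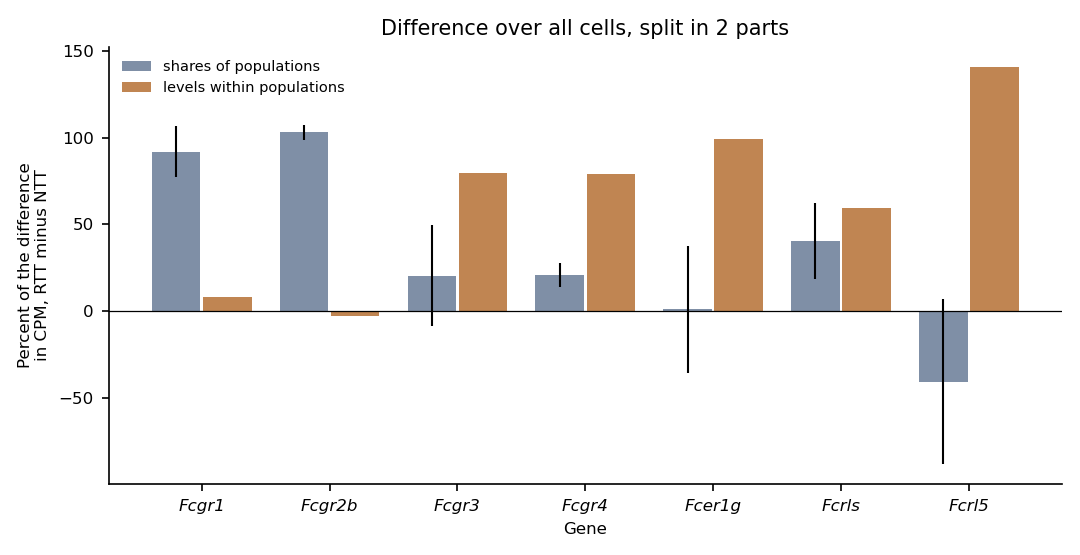
Percent of the difference in CPM over all cells (RTT minus NTT) that came from the UMI shares of populations and from levels within populations, for each of the 7 genes. Black lines run from the value with NTT levels to the value with RTT levels as weights; the share part is 91.9% for Fcgr1 and 103% for Fcgr2b, and 20.7% for Fcgr4.

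Fcgr4 was the activating receptor that differed most in each class, and it was lower in the RTT library in every class. In macrophages it went from 1960 CPM (11690 UMIs in 582 cells) to 336 CPM (13251 UMIs in 4009 cells), a log2 ratio of -2.54 (-2.58 to -2.51). In monocytes it went from 1437 to 702 CPM (-1.03, -1.14 to -0.93), and in dendritic cells from 170 to 56.9 CPM (-1.58, -1.83 to -1.34). The monocyte ratio was short of 2-fold with median-of-ratios scaling (-0.98), with populations weighted equally (-0.95) and in cells with at least 1500 genes (-0.90). The 2 highest levels were in NTT macrophages, 2677 CPM in TAM_cycling and 2618 CPM in TAM_H2Ab1, whose intervals overlapped. NTT Monocyte_1 followed at 1668 CPM and NTT Infl_Mono at 1044 CPM.

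The size of the Fcgr4 difference varied between populations. Among populations with at least 50 cells in each library it was largest in TAM_cycling, at 2677 CPM in 103 NTT cells and 273 CPM in 947 RTT cells (log2 ratio -3.29, -3.36 to -3.23). Next came cDC1, at 109 and 14.5 CPM from 71 and 6 UMIs (-2.90, -4.40 to -1.71), an interval that spans the TAM_cycling value. In DC3 it was at 91.3 and 45.9 CPM (-0.99, -1.97 to -0.13) and in NK_cells at 46.7 and 40.7 CPM (-0.20, -1.12 to 0.63). In both, with all cells of the name, Fcgr1 (1.95 and 1.13) and Fcgr3 (1.50 and 1.27) differed more, in the other direction. This order did not hold among cells with C1qa, a macrophage marker, under 1000 CPM. There Fcgr4 was at 52.0 and 22.2 CPM in DC3, and at 46.7 and 6.14 CPM (2 RTT UMIs) in NK_cells. Fcgr3 was at 62.5 and 62.1 CPM in DC3 and 57.3 and 82.8 CPM in NK_cells. Fcgr1 was at 39.0 and 57.7 CPM in DC3 and 34.7 and 49.1 CPM in NK_cells. In Monocyte_1 Fcgr4 was at 1668 and 575 CPM (-1.54), in cDC2 at 230 and 64.9 CPM (-1.83), in TAM_Spp1 at 369 and 207 CPM (-0.83) and in Infl_Mono at 1044 and 829 CPM (-0.33). Of the 488 RTT UMIs in Infl_Mono, 461 came from 45 cells with C1qa, a macrophage marker, at 1000 CPM or more. The cells below that level were at 712 CPM in the NTT and 141 CPM in the RTT library. In TAM_H2Ab1, with 36 RTT cells, it was at 2618 and 2012 CPM. With the macrophage populations weighted equally the log2 ratio in macrophages was -1.22. Among cells thinned to 2000 UMIs, 67.0% of NTT and 36.7% of RTT macrophages held an Fcgr4 UMI, against 7.32% of NTT and 0 of 41 RTT NK cells (3 cells of 41 would be 7.32%).

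By class Fcgr1, the high affinity receptor, was highest in monocytes of both libraries, at 1317 CPM in the NTT and 1189 CPM in the RTT library. Its level in Infl_Mono was 1523 CPM in the NTT and 1479 CPM in the RTT library, and these intervals overlapped. Of the 871 RTT UMIs, 699 came from 45 cells with C1qa at 1000 CPM or more. Cells at or above that C1qa level held 2058 CPM in the NTT and 1756 CPM in the RTT library. Cells below it held 1339 and 901 CPM, and in neither set of cells did the intervals overlap. Monocyte_1 was at 1205 and 906 CPM (log2 ratio -0.41, -0.55 to -0.28). The 36 RTT cells of TAM_H2Ab1, a macrophage population, were at 1357 CPM, above RTT Monocyte_1. Macrophages as a class were at 735 and 603 CPM (-0.28, -0.33 to -0.24), but with their populations weighted equally the ratio turned to 0.12. Dendritic cells were at 298 and 195 CPM (-0.61, -0.76 to -0.47). Within them Fcgr1 was lower in cDC2 (467 and 220 CPM) and cDC1 (156 and 41.2 CPM), and higher in the CCR7+ population DC3 (49.4 and 191 CPM, from 39 and 54 UMIs). Of the 54 RTT UMIs in DC3, 41 came from 6 of 57 cells that held C1qa at 1000 CPM or more. The other 51 cells were at 57.7 CPM, against 39.0 CPM in the corresponding 133 NTT cells.

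Fcgr3 and Fcgr2b shared a direction in macrophages and in dendritic cells. In macrophages Fcgr3 was at 792 CPM in the NTT and 1244 CPM in the RTT library (log2 ratio 0.65, 0.61 to 0.69), and Fcgr2b, the inhibitory receptor, at 1173 and 1392 CPM (0.25, 0.21 to 0.28). Weighted equally over populations, these ratios were 0.45 and 0.02. In dendritic cells Fcgr2b was at 191 and 451 CPM (1.24, 1.10 to 1.38) and Fcgr3 at 128 and 262 CPM (1.03, 0.86 to 1.21). The largest dendritic population, cDC2, had 239 and 508 CPM of Fcgr2b and 172 and 298 CPM of Fcgr3. Leaving out the dendritic cells with C1qa at 1000 CPM or more gave 1.37 for Fcgr2b and 1.10 for Fcgr3. With the dendritic populations weighted equally the ratios were 0.99 and 0.87, both short of 2-fold, and Fcgr3 was also short of it with TMM and median-of-ratios scaling (0.97 each) and with the mean of per-cell CPM (0.90). In monocytes Fcgr2b was lower, at 1457 and 1165 CPM (-0.32, -0.41 to -0.24), and Fcgr3 as a class value did not differ beyond counting error (1281 and 1293 CPM, 0.01, -0.07 to 0.09). By population Fcgr3 was lower in RTT Monocyte_1 (-0.20) and higher in RTT Infl_Mono (0.28). NK cells, for which Fcgr3 is known, held 57.3 CPM in the NTT and 138 CPM in the RTT library, well below the monocytes and most macrophages.

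Fcer1g, which encodes the gamma chain, was found in nearly all macrophages and monocytes and in fewer dendritic cells. After thinning, 100% of NTT and 99.9% of RTT macrophages held a UMI of it, and 86.6% of NTT and 89.6% of RTT dendritic cells. Within the dendritic cells the share was 98.9% and 99.0% in cDC2 and 80.8% and 57.4% in cDC1, and in DC3 it was 82 of 128 NTT and 26 of 52 RTT cells. In the mixed population NK_cells 41.5% of NTT and 31.7% of RTT cells held a UMI. Macrophages were at 10151 and 7865 CPM (log2 ratio -0.37, -0.38 to -0.36), monocytes at 11021 and 8396 CPM (-0.39, -0.42 to -0.36), and dendritic cells at 3479 and 3404 CPM (-0.03, -0.07 to 0.01). By population the level was lower in RTT TAM_cycling (11365 and 7312 CPM), while TAM_Spp1 had 6986 and 7061 CPM, a difference within counting error (0.02, -0.02 to 0.05). For each UMI of the 3 activating receptors there were 2.91 UMIs of Fcer1g in NTT and 3.60 in RTT macrophages. That number was 5.84 and 6.63 in dendritic cells.

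**Figure D2:**
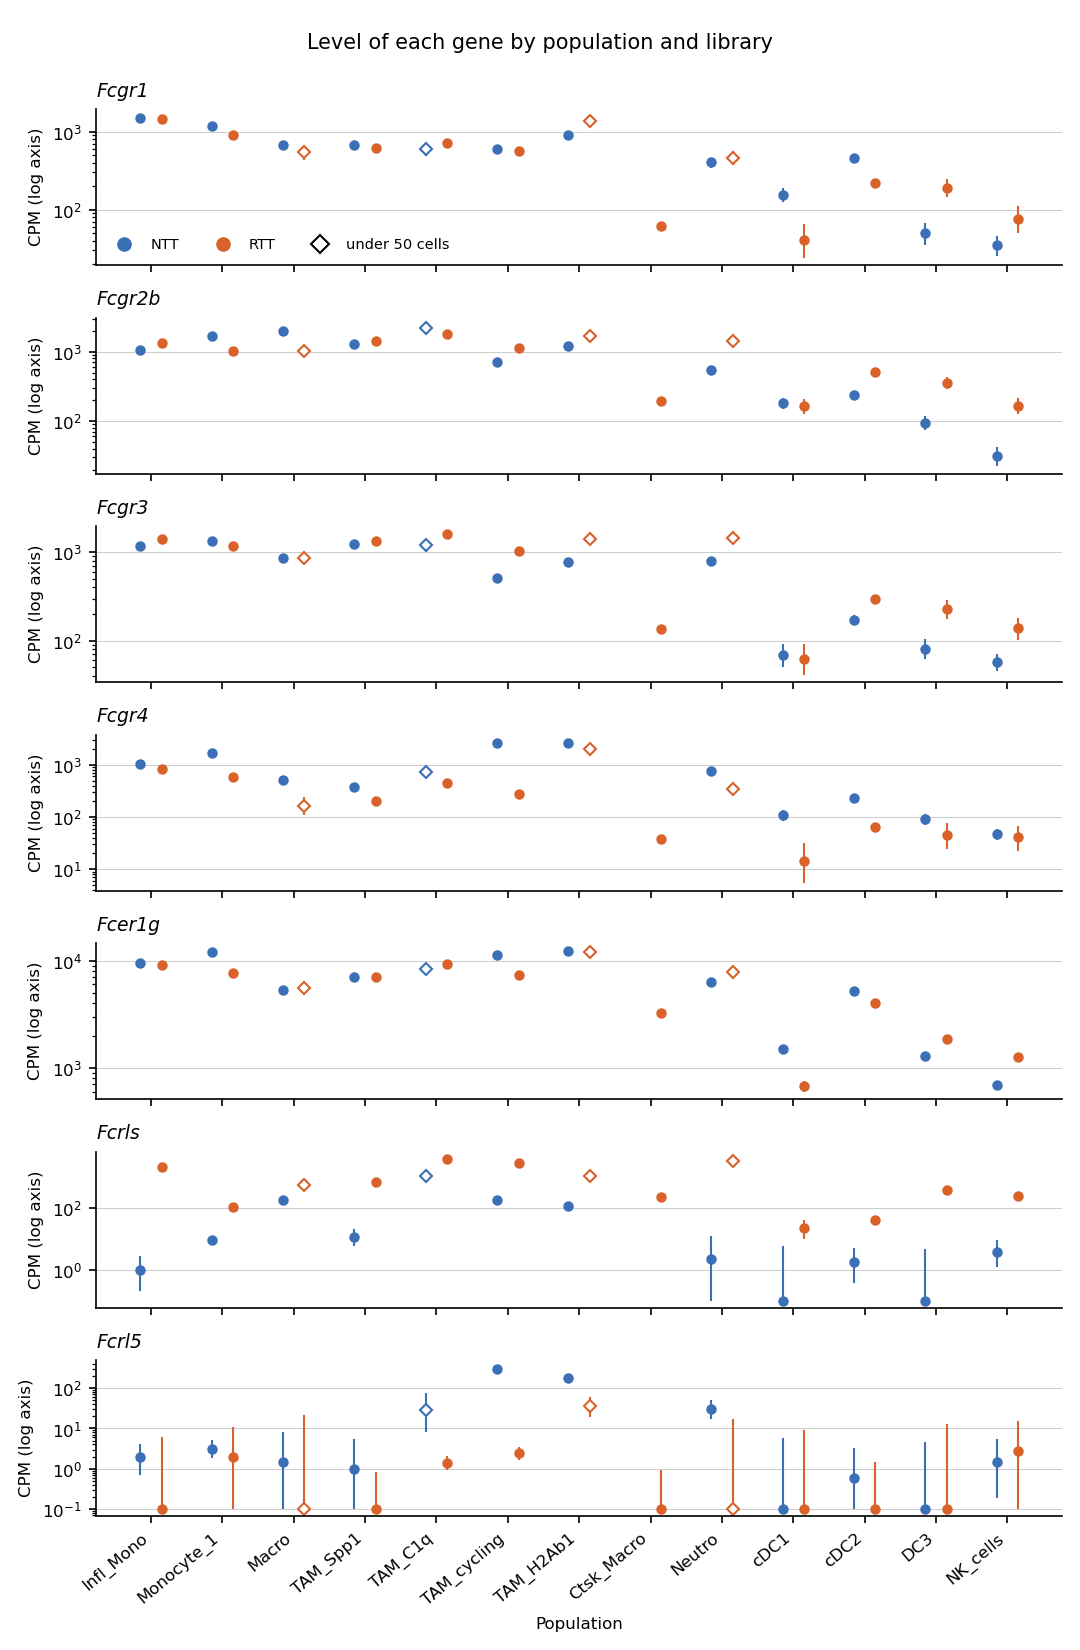
Level of each gene in CPM (log axis) by population, with NTT in blue and RTT in orange; bars are exact Poisson 95% intervals, open diamonds are sums of under 50 cells, and levels of 0 are drawn on the bottom line. Fcrls is higher in RTT in every population shown with both libraries, and Fcgr4 is highest in NTT TAM_cycling at 2677 CPM.

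The make-up of the Fc gamma receptor UMIs differed accordingly. In NTT macrophages Fcgr4 held 42.1% (41.5 to 42.6) of the UMIs of the 4 receptors, Fcgr2b 25.2%, Fcgr3 17.0% and Fcgr1 15.8%. In RTT macrophages Fcgr2b held 38.9% (38.7 to 39.2), Fcgr3 34.8%, Fcgr1 16.9% and Fcgr4 9.41%. The most different population was TAM_cycling, where Fcgr4 held 59.4% in NTT and 9.08% in RTT cells. In cDC2 Fcgr1 held the most in the NTT library (42.1%) and Fcgr2b in the RTT library (46.6%). As a ratio, NTT macrophages held 2.97 UMIs of activating receptors for each Fcgr2b UMI and RTT macrophages 1.57. Dendritic cells held 3.12 and 1.14, and monocytes 2.77 and 2.73. Among monocytes Infl_Mono held 3.49 and 2.80 and Monocyte_1 2.51 and 2.61. Of the 781 Fcgr2b UMIs of RTT Infl_Mono, 706 came from 45 cells with C1qa at 1000 CPM or more, so the RTT monocyte ratio rests partly on such cells. In the NTT Infl_Mono cells below that level, 2148 Fcgr2b UMIs stood beside 3132 of Fcgr1, 2674 of Fcgr3 and 1666 of Fcgr4. In the RTT cells below it, 75 stood beside 172, 185 and 27. In these cells the ratio was thus higher in the RTT library, on few UMIs. The ratio in TAM_Spp1 was 1.79 and 1.51, and in TAM_cycling 5.41 and 1.64.

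**Figure D3:**
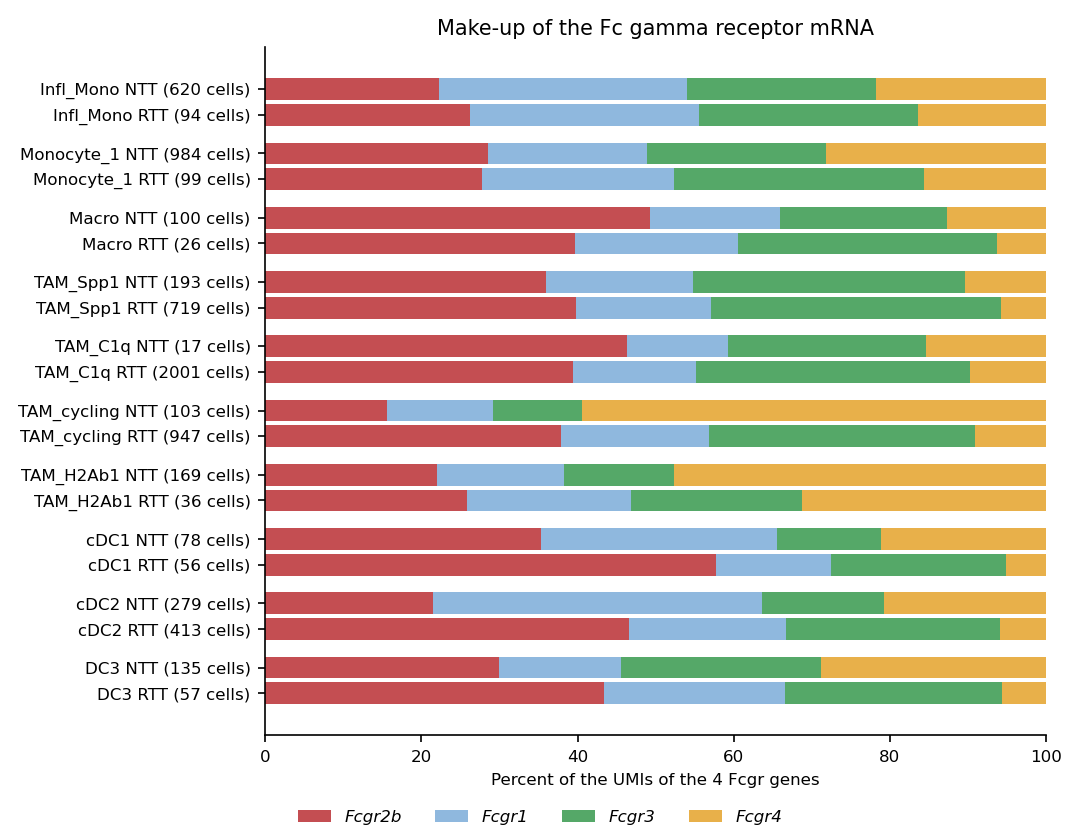
Percent of the UMIs of the 4 Fc gamma receptor genes that each held, by population and library. Fcgr4 holds 59.4% in NTT TAM_cycling and 9.08% in RTT TAM_cycling, and Fcgr2b holds 21.5% and 46.6% in NTT and RTT cDC2.

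Several Fc gamma receptors were found in the same cell. In cells thinned to 2000 UMIs, monocytes held UMIs of 3.34 of the 4 receptors on average in NTT and 2.70 in RTT cells, macrophages 2.89 and 2.68, and dendritic cells 0.845 and 1.09. All 4 were found in 56.4% of NTT and 31.1% of RTT monocytes, and in 30.9% of NTT and 24.3% of RTT macrophages. Among RTT macrophages with an Fcgr4 UMI, 92.3% also held Fcgr3, against 77.6% of those without. In NTT macrophages this order was reversed, with 75.9% against 81.6%, and the intervals of those 2 shares overlapped.

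Fcrls was nearly absent from the NTT library outside macrophages and was the second most abundant of the 7 genes in the RTT library. In macrophages it was at 144 CPM (860 UMIs) in the NTT and 2750 CPM (108289 UMIs) in the RTT library, a log2 ratio of 4.25 (4.16 to 4.35). A single cell held 92 of the 860 NTT UMIs, 10.7% of them. After thinning, 12.0% of NTT and 78.4% of RTT macrophages held a UMI. The highest level was in RTT TAM_C1q, 3792 CPM in 2001 cells, of which 97.5% held a UMI after thinning. The 17 NTT cells of that name were at 1042 CPM, but the single cell above held 92 of their 143 UMIs, and the other 16 cells were at 440 CPM (328 to 579). TAM_cycling followed at 174 and 2847 CPM, TAM_H2Ab1 at 114 and 1107 CPM and TAM_Spp1 at 11.7 and 698 CPM, and the RTT-only population Ctsk_Macro was at 222 CPM. The difference was therefore present in each macrophage population held by both libraries.

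Fcrls was also higher in the RTT cells named monocytes, dendritic cells, NK_cells and Neutro, and in Infl_Mono and Neutro its UMIs lay almost wholly in cells with C1qa. In Infl_Mono it was at 0.954 CPM (3 UMIs in 620 cells) in the NTT and 2112 CPM (1244 UMIs in 94 cells) in the RTT library. Of those 1244 UMIs, 1234 came from the 45 cells with C1qa at 1000 CPM or more, which held 3100 CPM. The other 49 cells were at 52.4 CPM. The 15 RTT Neutro cells above that C1qa level held 696 of 698 UMIs. Among RTT NK cells below it Fcrls was at 46.0 CPM, and among RTT cDC2 cells below it at 30.8 CPM. NTT Infl_Mono cells with C1qa at 1000 CPM or more, 145 in number, held 1 Fcrls UMI. Leaving out the cells above that level, the log2 ratio in monocytes went from 7.54 to 3.65. That of Fcgr4 in monocytes went from -1.03 to -1.96 and that of Fcgr2b from -0.32 to -0.99. That of Fcgr1 went from -0.15 to -0.43 and that of Fcgr3 from 0.01 to -0.27. In dendritic cells Fcrls was at 0.953 CPM (3 UMIs) and 68.2 CPM (222 UMIs), with 6.86% of RTT cells holding a UMI after thinning, against 19.5% of the 41 thinned RTT NK cells (median depths before thinning 5804 and 3967 UMIs), so this level was not above that of cells which should lack the gene.

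Fcrl5 was confined mostly to a pair of NTT macrophage populations. TAM_cycling held 571 and TAM_H2Ab1 395 of the 1012 NTT UMIs, at 301 and 179 CPM. After thinning, 36.9% and 30.8% of these cells held a UMI. The RTT TAM_cycling cells held 30 UMIs in 947 cells (2.46 CPM), and the 36 RTT TAM_H2Ab1 cells 13 UMIs (36.1 CPM). Over all macrophages the level was 163 CPM in the NTT and 1.75 CPM in the RTT library (log2 ratio -6.54, -6.91 to -6.19), and with populations weighted equally the ratio was -3.65. Of the 69 RTT UMIs, 11 were in 1 cell. Outside macrophages 1 NTT Neutro cell, with C1qa at 1000 CPM or more, held all 14 UMIs of the 91 cells of that name, and the NTT levels were 3.14 CPM or less elsewhere among populations of at least 50 cells. In monocytes 23 NTT UMIs stood against 1 in the RTT library (-1.60, -6.96 to 1.02), and in dendritic cells 1 UMI against 0.

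Of the 3 B cell markers in the matrix, 1 was at 0 and another near 0 in the NTT macrophages with an Fcrl5 UMI. In these 176 cells Cd79a, a chain of the B cell receptor complex, had 0 UMIs and Ms4a1 7, while Cd79b had 198 (72.4 CPM, against 33.8 CPM in the 406 cells without). Ighm, the heavy chain of IgM, had 256 UMIs (93.6 CPM, against 840 CPM in the cells without). Of the 2714 Ighm UMIs in the cells without, 2492 were in 27 TAM_cycling cells, which held 9671 CPM of the plasma cell markers. Igkc is among those markers, and 1 NTT macrophage held 3862 of its 3882 UMIs in the class. The spread of the Ighm UMIs over the 27 cells is not given, so the 840 CPM may rest on few cells. Within TAM_H2Ab1 Ighm was at 86.5 CPM with and 103 CPM without an Fcrl5 UMI. Of the 4 markers of plasmacytoid dendritic cells, Siglech and Ccr9 had 0 UMIs, while Tcf4 was at 131 CPM and Bst2 at 619 CPM, against 161 and 666 CPM in the cells without. The 7 macrophage markers summed to 29206 CPM with and 26516 CPM without an Fcrl5 UMI, and the 5 monocyte markers to 174 and 3910 CPM. Cells with an Fcrl5 UMI were deeper (median 14544 against 6176 UMIs), so that these are levels per UMI of cells chosen by detection. Fcgr4 was at 3080 CPM in them and 1012 CPM in the others. The same order was seen within TAM_H2Ab1 (3105 and 1969 CPM) and within TAM_cycling (3120 and 1295 CPM). Fcgr2b ran the other way, at 744 and 1537 CPM, and Itgax, an integrin of dendritic cells and some macrophages, was at 557 and 217 CPM.

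By class, members past 2-fold were counted against all genes with at least 200 UMIs in that class. In macrophages 1 of 7 was higher, where 4.61% of 8888 genes were, and 2 of 7 were lower, where 6.18% were. In monocytes 1 of the 6 members that passed the UMI minimum was higher (2.97% of 5326 genes) and 1 lower (6.74%). In dendritic cells 3 of 6 were higher (4.83% of 4407 genes), namely Fcgr2b, Fcgr3 and Fcrls, and 1 was lower (7.56%), namely Fcgr4. With populations weighted equally, as given above, Fcgr2b and Fcgr3 were short of 2-fold in dendritic cells, as was Fcgr4 in monocytes.

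**Figure D4:**
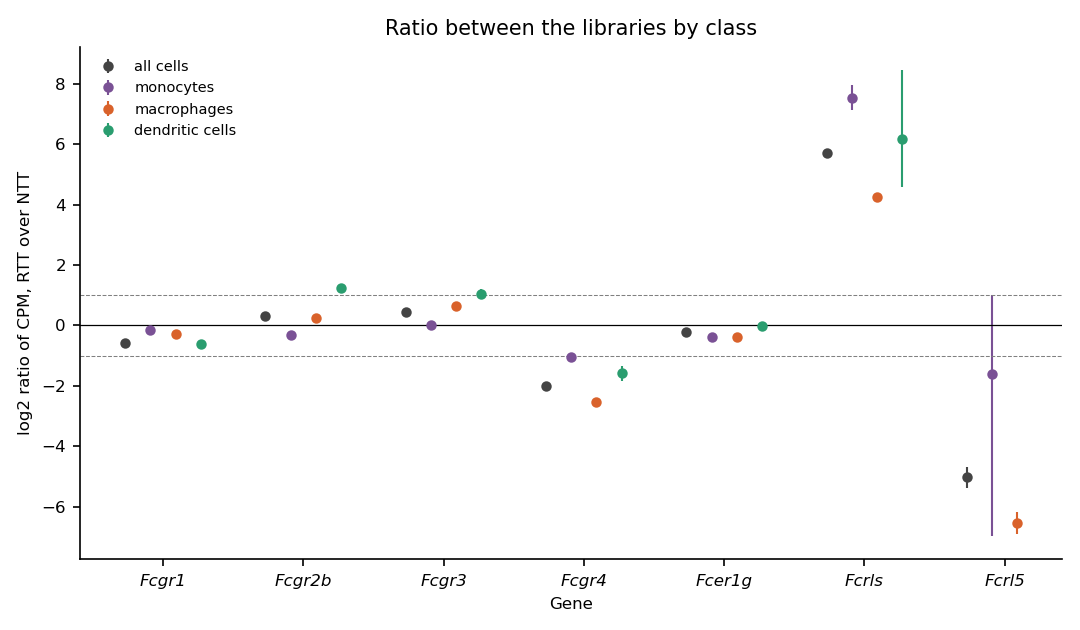
Log2 ratio of CPM (RTT over NTT) of each gene over all cells and in 3 classes, with exact 95% intervals for counting error; dashed lines mark 2-fold, and Fcrl5 has no ratio in dendritic cells. Fcgr4 lies below the lower dashed line in every class, with the monocyte value at -1.03, and Fcrls lies above the upper one.

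Of the genes that act below the activating receptors, 24 were listed and all were tested in macrophages, with 1 at least 2-fold higher, 6 lower and a median log2 ratio of -0.47, against 0.06 over all genes. Syk, the kinase recruited by the gamma chain, was at 169 CPM in NTT and 76.6 CPM in RTT macrophages (log2 ratio -1.14, -1.25 to -1.04). Lyn, a Src family kinase, was at 822 and 533 CPM (-0.62), and Fyn, another, at 143 and 44.0 CPM (-1.70). Pik3ap1, an adaptor of PI3 kinase, was at 336 and 130 CPM (-1.36). On the higher side stood Src, with 1.17 and 12.0 CPM (3.36), and Blnk, an adaptor, with 60.2 and 94.9 CPM (0.66). Tyrobp, the DAP12 adaptor related to the gamma chain, was at 3566 and 4203 CPM (0.24).

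The 10 genes of inhibitory signalling below Fcgr2b had none past 2-fold in macrophages and a median of -0.20. Inpp5d, the phosphatase that binds Fcgr2b, was at 176 and 130 CPM (-0.44, -0.54 to -0.34), Ptpn6 (SHP1) at 559 and 379 CPM (-0.56), Cbl at 145 and 102 CPM (-0.51) and Dok3 at 112 and 141 CPM (0.33). In a list of 10 other myeloid receptors, most of them inhibitory, 2 were lower and none higher, with a median of -0.64. They were Siglece (150 and 42.1 CPM, -1.84), an inhibitory receptor, and Siglec1 (35.2 and 17.0 CPM, -1.05), an adhesion receptor with no inhibitory motif. Without Siglec1 and Cd300lb, which is also not inhibitory, 1 of 8 was lower and the median was -0.52. Clec12a was at 154 and 176 CPM and Clec4a2 at 730 and 739 CPM.

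Other receptors that pair with the gamma chain or its relatives differed in both directions in macrophages, with 2 of 8 tested higher and 4 lower (median -0.79). Clec4n (dectin-2) was at 332 and 957 CPM (1.53, 1.46 to 1.59). Oscar had 0 UMIs in NTT and 1030 UMIs (26.2 CPM) in RTT macrophages. That is at least 5.70 higher on the log2 scale when the NTT count is set to 3 UMIs. The RTT class includes the RTT-only Ctsk_Macro, 280 cells with 48651 CPM of the 4 osteoclast-like markers. Levels of Oscar and Src by population are not given, so their class ratios do not show a difference within macrophages of the same name. Pira2 was at 68.6 and 26.7 CPM (-1.36) and Cd300lf at 103 and 44.2 CPM (-1.22). Of 12 other Fc receptors listed, 7 were in the matrix and 4 passed the minimum in macrophages, 1 of them higher and 1 lower. Fcgrt, the neonatal Fc receptor, was at 281 and 410 CPM (0.54, 0.47 to 0.62). Fcrl1, a B cell gene, was at 1.84 and 6.35 CPM (1.78), Fcrlb at 7.55 and 13.4 CPM (0.82) and Trim21, the cytosolic antibody receptor, at 18.8 and 8.66 CPM (-1.12).

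Antibody genes, whose products these receptors bind, were mostly from single cells. All 4 tested genes of the antibody and B lineage list were lower in RTT macrophages (median -8.15), but 1 NTT cell held 3862 of 3882 Igkc UMIs, and another value of this kind was 195 of 198 Jchain UMIs in 1 cell. Igkc was at 651 and 0.406 CPM (-10.65) and Jchain at 33.2 and 0.0508 CPM (-9.35), and neither ratio describes more than those cells.

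Genes induced by interferon, to which Fcgr1 and Fcgr4 are also known to respond, were lower in RTT macrophages in 18 of 19 tested cases (median -2.16), for example Ifit2 (98.8 and 8.86 CPM, -3.48) and Ifit3 (135 and 14.4 CPM, -3.23). In dendritic cells 19 of 19 were lower (median -2.23). In monocytes 3 were lower and 1 higher (median -0.28). Beside these medians, Fcgr4 was at -2.54, -1.58 and -1.03 and Fcgr1 at -0.28, -0.61 and -0.15 in macrophages, dendritic cells and monocytes. The study placed Fcgr1 and Fcgr4 in monocyte lists of its own drawn from a map with these libraries, so their place in such a list is not independent of these cells. Among 10 C1q macrophage genes, 2 were higher and none lower in RTT macrophages (median 0.40), Stab1 at 81.5 and 484 CPM (2.57) and Apoe at 5697 and 13095 CPM (1.20), beside 4.25 for Fcrls. C1qa itself was at 7165 and 7860 CPM. Whether interferon or the make-up of the macrophages had a part in these differences was not tested.

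The genes most like each member were sought among 8213 genes over 21 sums of a population and library with at least 50 cells, which share 2 libraries and their depth. Fcgr1 was most like Ms4a6c (Pearson r 0.97), Cybb (0.93) and Ms4a6d (0.93). Among the genes most like Fcgr3 were Msr1 (0.96) and Ms4a6d (0.95), and Fcgr2b like Ctsl, Ctsc and App (0.95 each). Fcer1g was most like Lair1 (0.97), Ms4a6d (0.94) and Lst1 (0.94). Fcgr4 was most like Lst1 (0.93), Klra2 (0.92) and Cfb (0.91), a complement factor at 308 CPM in the NTT and 24.9 CPM in the RTT library. Fcrls was most like Tanc2 (0.91), Atg5 (0.88) and Stab1 (0.87). Fcrl5 was most like Cd300e (0.97), Lilra5 (0.90) and Tmem26 (0.86), and by Spearman's rho none of these 3 stayed among its top 3. For Fcgr2b, Fcer1g and Fcrls 1 of the 3 stayed by Spearman's rho, and for Fcgr1, Fcgr3 and Fcgr4 2 of 3. Between members, r was 0.95 for Fcgr2b with Fcgr3 and 0.73 for Fcgr2b with Fcgr4.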

How the data were processed

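The authors processed the reads with Cell Ranger 6.1.1 against mm10, dropped cells at or under 1000 detected genes or over set limits of mitochondrial and ribosomal reads, and kept genes found in each of several experiments. The deposited values are raw UMI counts for 7815 cells with their population names; no doublet caller is stated, and all deposited cells were kept. In total the libraries held 19634099 (NTT) and 44712071 (RTT) UMIs, and 7 barcodes occurred in both. The members and gene lists were chosen with earlier results of these data known.

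Counts were summed over all cells or the cells of a class and scaled to CPM in Python 3.11.15 (numpy 2.4.6, scipy 1.17.1, pandas 2.3.3). Dendritic cells were DC3, cDC2 and cDC1, monocytes were Infl_Mono, Monocyte_3 and Monocyte_1, and macrophages were Macro, Ctsk_Macro, the cycling TAM_cycling, and also TAM_Spp1, TAM_H2Ab1 and TAM_C1q. Ratios (log2) put RTT over NTT and have exact binomial 95% intervals, CPM have exact Poisson intervals and shares exact Clopper-Pearson intervals, all for counting error only; beside a share of 0 the share that 3 cells would give is printed instead. For a library with 0 UMIs the count was set to 3, and no fold is given where both libraries had 3 UMIs or fewer. Genes needed 200 UMIs over both libraries to be counted as 2-fold. Shares of cells were taken after thinning each cell to 2000 UMIs, leaving out shallower cells (107 NTT and 63 RTT). With 1 library per group there are no tests or p-values. Likeness is Pearson's r of log2(CPM + 10) among genes with at least 500 UMIs. Named genes are all members, the 3 most alike for each (1 of these genes is not reported here), and from each list the 2 largest ratios in each direction in macrophages with Tyrobp, Syk, Inpp5d, Ptpn6, Lyn and Fcgrt; Cd79a, Cd79b, Ms4a1, Siglech, Ccr9, Tcf4, Bst2, Itgax and C1qa come from marker lists, and Ighm and Cd300lb were named after their values were seen. Scaling alternatives used edgeR 4.0.16 and DESeq2 1.42.0 in R 4.3.3, for their factors only. The method was tested on simulated data. Splits of cells by C1qa and by Fcrl5, levels without a single cell, the shortened receptor list, the rule on giving no fold, and the listing of opposite signs with no minimum fold were added after seeing the data. Positions are from RefSeq on GRCm38.p6, the build of the authors' reference.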

Additional observations from a re-analysis of the deposited data

Results flagged for a closer look

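Fcgr1, Fcgr2b, Fcgr3 and Fcer1g had ratios of opposite signs in populations with at least 50 cells in each library, with intervals that exclude 0. The rule has no minimum fold, and the share of all genes that meet it is not given, so no weight is put on the number of members. The difference between the populations was not tested. Fcgr1 was higher in RTT DC3 (log2 ratio 1.95) and lower in RTT cDC1 (-1.92). Fcgr2b was higher in RTT NK_cells (2.42) and lower in RTT Monocyte_1 (-0.73). Fcgr3 was higher in RTT DC3 (1.50) and lower in RTT Monocyte_1 (-0.20). Fcer1g was higher in RTT NK_cells (0.86) and lower in RTT cDC1 (-1.16). The RTT cells named DC3 held 5071 CPM of the 7 macrophage markers against 869 CPM in the NTT library, and the RTT NK_cells 3323 against 372 CPM. Among cells with C1qa under 1000 CPM, Fcgr3 in DC3 was at 62.5 CPM in the NTT and 62.1 CPM in the RTT library, Fcgr2b in NK_cells at 30.9 and 101 CPM, and Fcer1g in NK_cells at 691 and 617 CPM.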

How the results depend on the processing

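No paired analysis was possible because each group held 1 library. Over all cells the 7 ratios kept their sign under every alternative tried. With TMM and median-of-ratios scaling, which moved all values by -0.09, they were -0.66 and -0.66 for Fcgr1, 0.22 and 0.23 for Fcgr2b, 0.36 and 0.36 for Fcgr3, -2.08 and -2.08 for Fcgr4, and -0.31 and -0.31 for Fcer1g. With the mean of per-cell CPM they were -0.63 for Fcgr1, 0.27 for Fcgr2b, 0.36 for Fcgr3, -1.83 for Fcgr4, 6.56 for Fcrls and -4.34 for Fcrl5. Thinned to 2000 UMIs they were -0.65 for Fcgr1, 0.34 for Fcgr3, -1.82 for Fcgr4 and 6.46 for Fcrls. Without the deepest 2% of cells they were 0.29 for Fcgr2b, 0.42 for Fcgr3, -1.92 for Fcgr4, -0.21 for Fcer1g and 6.23 for Fcrls. Without cycling macrophages they were -0.61 for Fcgr1, -1.73 for Fcgr4, -0.16 for Fcer1g, 6.13 for Fcrls and -4.30 for Fcrl5. Among cells with at least 1500 genes Fcer1g was at -0.20 and Fcrls at 5.625, and without the top cell of each library Fcrls was at 5.87. In macrophages Fcgr1 turned to 0.12 with populations weighted equally. The share part turned to -8.86% for Fcgr3 with NTT levels, and to -35.6% for Fcer1g and 6.85% for Fcrl5 with RTT levels. In monocytes the count of lower members was 0 with median-of-ratios scaling and 2 with no minimum of UMIs. The share of all genes called lower is not given for either setting, so these member counts cannot be judged against all genes. Counts of all genes past 2-fold with no minimum of UMIs were 1384 higher and 2037 lower over all cells, 1128 and 956 in monocytes, 808 and 1505 in macrophages, and 1145 and 1351 in dendritic cells. With a minimum of 500 UMIs they were 77 and 189 in monocytes, 82 and 171 in dendritic cells, and 272 higher in macrophages. Fcrl5 outside NTT macrophages rests on few UMIs, and differences between mice cannot be estimated.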
